A study of Homo sapiens with 6 samples.

Results

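Chemokine genes and genes that restrain NF-kB signalling were examined in QBC-939 cells, a line labelled as human cholangiocarcinoma (bile duct cancer). The genes were chosen by name: the chemokines CXCL1, CXCL2, CXCL3, CXCL5, CXCL8, CXCL16 and CCL20, the feedback inhibitors NFKBIA and TNFAIP3, and the cytokine IL18. Of the 10 genes, 9 were found among the 27238 rows of the expression table, and CXCL5 is not analysed here. The control group held 3 libraries of cells given a scrambled shRNA, and the Bmi1 shRNA group held 3 libraries of cells given an shRNA directed at BMI1, a subunit of Polycomb repressive complex 1. All 6 libraries were made after 48 h of treatment, and the design text speaks of 3 independent transfections of this single line for each shRNA. Cells were grown in DMEM with fetal bovine serum, both groups carried an shRNA, and no untreated cells were among the samples.

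NF-kB is a family of dimeric transcription factors held in the cytoplasm by IkB proteins. When receptors of the TNF, interleukin-1 or Toll-like families are engaged, the IKK kinase complex marks IkB for destruction and the dimers enter the nucleus. Their targets include neutrophil-attracting chemokines (CXCL1, CXCL2, CXCL3, CXCL5 and CXCL8), the lymphocyte attractant CCL20, and the inhibitors NFKBIA and TNFAIP3, which switch the signal off again. Bile duct cells are known to release such chemokines when exposed to bacterial products or inflammatory cytokines. IL18 is different: epithelial cells keep its precursor in store and caspases cut it to the active form.

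The promoter sequences of these genes are shown because the members with the NF-kB motif in common stood at very different levels in the same cells. The 250 bases before the RefSeq gene start (GRCh38.p14) were searched on both strands for GGAATTTCC, a form of the NF-kB (kB) site. RefSeq promoters were matched by symbol for 8 of the 10 genes, and the motif lay in 6 of them (CXCL1, CXCL2, CXCL3, CXCL5, CXCL8 and NFKBIA), against 0.413% of 35116 promoters. The looser form GGNNNTTCC, which contains the first, lay in all 8 matched promoters (CCL20 and TNFAIP3 in addition) and in 17.1% of all promoters. A match of letters is a description and not evidence of binding. Each window below is read along the gene's strand with the motif in capitals and 30 bases on each side. The windows are chr4:73869285-73869353 (plus strand) for CXCL1, chr4:74099234-74099302 (minus) for CXCL2, chr4:74038729-74038797 (minus) for CXCL3, chr4:73740448-73740516 (plus) for CXCL8 and chr14:35404792-35404860 (minus) for NFKBIA, where the motif reads in the opposite orientation.
CXCL1: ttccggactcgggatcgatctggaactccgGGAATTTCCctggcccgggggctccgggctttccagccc
CXCL2: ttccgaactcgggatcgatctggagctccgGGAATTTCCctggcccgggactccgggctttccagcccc
CXCL3: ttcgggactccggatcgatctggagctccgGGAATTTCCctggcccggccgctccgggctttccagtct
CXCL8: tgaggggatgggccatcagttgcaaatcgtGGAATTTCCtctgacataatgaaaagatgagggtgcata
NFKBIA: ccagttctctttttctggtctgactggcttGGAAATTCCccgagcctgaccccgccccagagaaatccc
The motif began 78 bases before the gene start in CXCL1, 77 in CXCL2, 78 in CXCL3, 91 in CXCL8 and 81 in NFKBIA.

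The unit is FPKM, or fragments per kilobase of a transcript after scaling for all mapped fragments of the library. These are levels per length and can be set side by side between genes. BMI1 measured 6.02 ± 0.659 FPKM (SD, n = 3) in control and 1.78 ± 0.770 FPKM (SD, n = 3) with Bmi1 shRNA, with no overlap between the groups. The readthrough gene COMMD3-BMI1 overlaps BMI1 on the same strand, and how fragments were divided between them was not tested. The epithelial markers EPCAM (161 to 184 FPKM over the 6 libraries), KRT19 (195 to 291) and SOX9 (18.7 to 24.7) were present, while the bile duct keratin KRT7 was low (2.06 to 3.45). Of 8 epithelial markers 4 fell, KRT19 (to 73.5% of control) and CDH1 (to 51.1%) among them, and none rose. Of all tested rows 28.5% fell and 28.6% rose. Among rows of like GC content (the list's median was 54.4%), 45.3% fell and 14.8% rose. Once a trend with GC content and length was removed, as described below, 4 of the 8 were lower and none higher. Of the hepatocyte markers, TTR rose from 6.11 ± 0.692 to 18.7 ± 1.10 FPKM and HNF4A fell from 1.76 ± 0.192 to 0.989 ± 0.131 FPKM (SD, n = 3 each), and APOA1 lay near 0. Markers of fibroblasts and endothelial cells stood near 0 (at most 0.414 and 0.0237 FPKM). Of 6 leukocyte markers with a value, CSF1R did not pass 0.0732 FPKM and CD14 reached 1.06. The summed level of the 6 was 1429 to 1532 FPKM in control and 1520 to 1581 FPKM with Bmi1 shRNA, nearly all of it LYZ (1416 to 1570). LCP1 rose from 0.371 ± 0.0352 to 1.92 ± 0.211 FPKM and CD68 fell from 11.5 ± 0.449 to 7.53 ± 0.812 FPKM (SD, n = 3 each), and ITGAM, below the filter, went from 0.973 ± 0.112 to 0.322 ± 0.110 FPKM with no overlap between the groups (limma with no filter, adjusted p = 0.00715). The part of these genes in the results was not tested. Low FPKM values piled up at a common step, which placed the libraries between 0.805 and 1.02 times the depth of control replicate 1, with Bmi1 shRNA replicate 3 the shallowest. If that step is 1 fragment, the libraries held about 16000000 to 20300000 fragments, and the number of fragments behind a member can be estimated from its FPKM and transcript length. A smaller pile lay at a fraction of that step (77 to 98 low rows per library, against 116 to 137 at the step). Whether the step is 1 fragment is therefore not settled, and all fragment numbers are rough.

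The clearest change was in CXCL16, a chemokine made as a membrane protein that also serves as a scavenger receptor. It measured 6.37, 6.99 and 6.90 FPKM in control replicates 1 to 3 and 2.96, 3.10 and 2.97 FPKM in Bmi1 shRNA replicates 1 to 3. Every Bmi1 shRNA library lay far below every control library, and the groups did not overlap. The mean fell from 6.75 ± 0.336 to 3.01 ± 0.0740 FPKM (SD, n = 3 each), 44.6% of control. Its log2 fold change on the log2(FPKM + 1) scale was -0.95 with a standard error of 0.06 (limma, Benjamini-Hochberg adjusted p = 0.000247), and only 0.835% of the 11016 tested rows had a lower one. In these bulk libraries, fewer cells that express a gene and less of its RNA per cell cannot be told apart. An estimated 279 to 316 fragments lay behind each control value and 106 to 136 behind each Bmi1 shRNA value.

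The plot of FPKM by library shows this separation beside the other 8 genes.

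**Figure D1:**
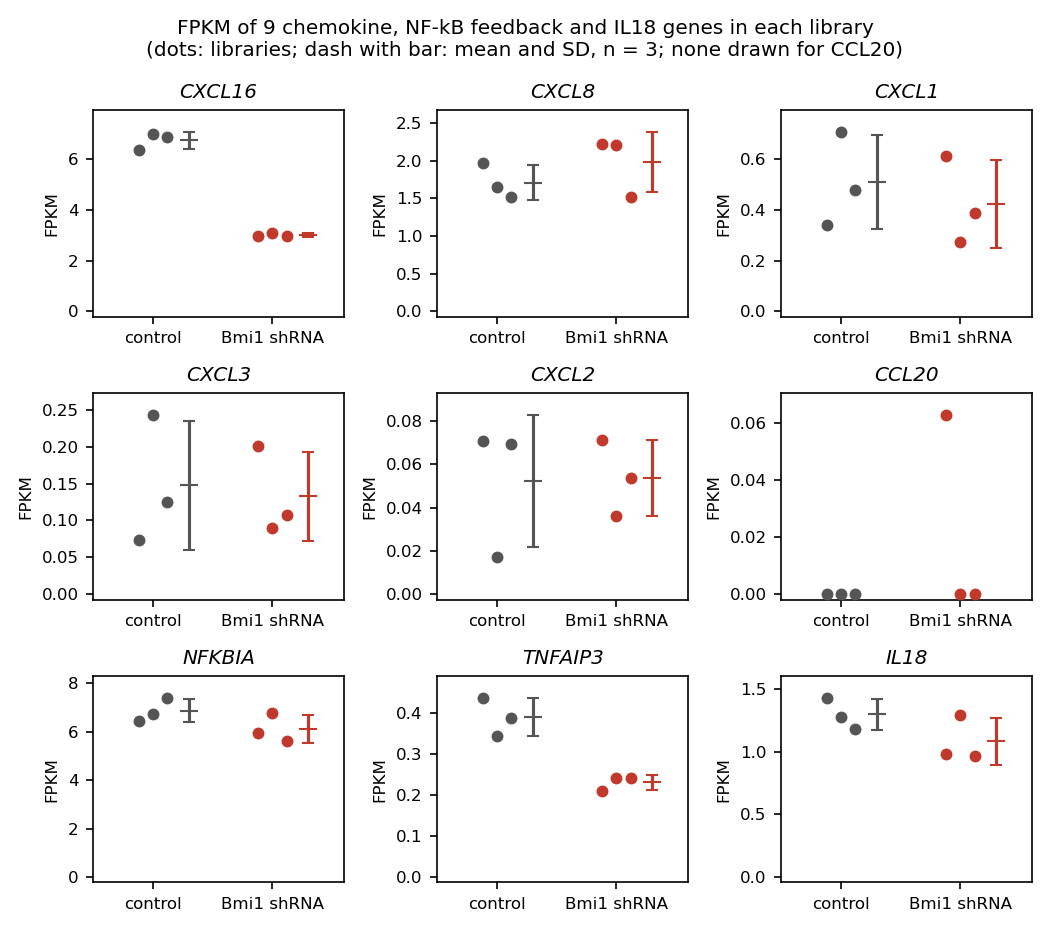
FPKM (vertical axes, linear, a separate scale for each gene) of the 9 genes in each of 3 control and 3 Bmi1 shRNA libraries; dots are libraries and the dash with a bar is the mean and SD. CXCL16 falls from 6.37 to 6.99 FPKM in control to 2.96 to 3.10 FPKM with Bmi1 shRNA, TNFAIP3 also shows no overlap, and the values of the other 7 genes overlap.

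CXCL16 lies on the minus strand of chromosome 17 from 4733526 to 4739922 (GENCODE 29, GRCh38), apart from the chemokine cluster on chromosome 4. It shares 85 of its 2794 exon bases with the end of MED11, a Mediator subunit gene on the other strand. MED11 went the other way, from 7.90 ± 0.545 to 9.36 ± 0.864 FPKM (SD, n = 3 each), and did not pass (limma, adjusted p = 0.0639). The sources used here do not say whether counting used strand, so reads over those bases cannot be assigned to either gene.

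CXCL16 was the 1 gene called among the 4 members that could be tested, those with a mean of at least 1 FPKM (CXCL16, CXCL8, NFKBIA and IL18). A gene was called at an adjusted p under 0.05. Of all 11016 tested rows, 57.1% were called, 28.6% higher and 28.5% lower with Bmi1 shRNA, so 1 called gene of 4 is not a share above the background. The median log2 fold change was -0.15 over the 4 members and -0.02 over all tested rows. By the plain separation of libraries, CXCL16 and TNFAIP3 did not overlap between the groups, 2 of the 9 members with a row, and 37.3% of all rows did not; of tested rows 65.4% did not, against 1 of 4 members.

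CXCL8 (interleukin-8), the main human neutrophil attractant, was the most abundant member of the chromosome 4 cluster. Control libraries gave 1.97, 1.64 and 1.51 FPKM, and 2.22, 2.21 and 1.52 FPKM were found with Bmi1 shRNA. Bmi1 shRNA replicates 1 and 2 were above all controls, while replicate 3 lay among them, so the groups overlapped. The means were 1.71 ± 0.237 and 1.98 ± 0.403 FPKM (SD, n = 3 each), and the log2 fold change of 0.13 did not pass (limma, adjusted p = 0.384; 95% interval -0.16 to 0.42).

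The other neutrophil-attracting chemokines of the cluster, CXCL1, CXCL2 and CXCL3, lay near 0 in every library. CXCL1, the most abundant of these, measured 0.341, 0.708 and 0.479 FPKM in control and 0.612, 0.272 and 0.386 FPKM with Bmi1 shRNA. CXCL3 measured 0.0735, 0.244 and 0.126 FPKM in control and 0.201, 0.0891 and 0.107 FPKM with Bmi1 shRNA. CXCL2 measured 0.0707, 0.0170 and 0.0693 FPKM in control and 0.0714, 0.0361 and 0.0539 FPKM with Bmi1 shRNA. The groups overlapped for all 3 genes, and these values rest on an estimated 5.90 to 15.8 fragments per library for CXCL1, 1.57 to 5.32 for CXCL3 and 0.419 to 1.71 for CXCL2. All 3 were below the filter; exact two-sided permutation tests of FPKM gave p = 0.6 for CXCL1, 0.7 for CXCL3 and 0.8 for CXCL2, where 3 against 3 libraries cannot go below 0.1. No difference between the groups was detected, on few estimated fragments and with 3 libraries per group. The transcripts of these genes are alike: 5.73% of the 50-base stretches of CXCL1, 9.24% of those of CXCL2 and 5.26% of those of CXCL3 occur unchanged in another of the 3. No stretch of 100 or 150 bases is shared unchanged. Only unchanged matches were counted, so how far reads aligned with mismatches could be shared was not tested.

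CCL20, the ligand of CCR6, was listed at 0 in all 3 control libraries and in Bmi1 shRNA replicates 2 and 3. In Bmi1 shRNA replicate 1 it measured 0.0630 FPKM, an estimated 1.02 fragments. Its exact two-sided permutation p was 1, and no fold is given.

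Within the control libraries the members therefore fell in the order NFKBIA, CXCL16, CXCL8, IL18, CXCL1, TNFAIP3, CXCL3, CXCL2 and CCL20 by mean FPKM, and the order was the same with Bmi1 shRNA. In control, NFKBIA and CXCL16 overlapped, as did CXCL1 and TNFAIP3, while the other neighbours in this order did not overlap. With Bmi1 shRNA, CXCL16 (2.96 to 3.10 FPKM) lay below NFKBIA (5.63 to 6.77 FPKM) in every library. CXCL1, CXCL2 and CXCL3, whose promoter windows are printed above, thus stood below CXCL8 and NFKBIA, which hold the same motif.

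NFKBIA encodes IkB-alpha, the inhibitor that NF-kB itself induces. It measured 6.45, 6.75 and 7.40 FPKM in control and 5.93, 6.77 and 5.63 FPKM with Bmi1 shRNA. Bmi1 shRNA replicate 2 lay among the controls and the other replicates just below them. The means of 6.87 ± 0.489 and 6.11 ± 0.592 FPKM (SD, n = 3 each) gave a log2 fold change of -0.15 that did not pass (limma, adjusted p = 0.174; 95% interval -0.35 to 0.05), with 140 to 214 estimated fragments per library.

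TNFAIP3 encodes A20, a ubiquitin-editing enzyme that shuts down signalling from the TNF receptor to IKK. It was low, at 0.437, 0.344 and 0.386 FPKM in control and 0.209, 0.241 and 0.242 FPKM with Bmi1 shRNA. Every Bmi1 shRNA library lay below every control library. The mean went from 0.389 ± 0.0464 to 0.231 ± 0.0187 FPKM (SD, n = 3 each), 59.3% of control, on an estimated 33.1 to 41.1 fragments per control library and 18.3 to 22.6 per Bmi1 shRNA library. Such a separation was seen in 18.2% of the 16222 rows below the filter, and p was 0.1 by an exact two-sided permutation test of FPKM, its smallest possible value. When all 27238 rows were tested with no filter, TNFAIP3 was called lower (limma, adjusted p = 0.0280), as were 10.8% of rows; in either direction 2 of 9 members and 23.4% of rows were called. That call ended without control replicate 3 (adjusted p = 0.0684) or without Bmi1 shRNA replicate 1 (0.0773), 2 (0.0630) or 3 (0.0552), and with a pseudocount of 0.1 (limma, adjusted p = 0.0709).

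IL18 measured 1.43, 1.28 and 1.18 FPKM in control and 0.980, 1.298 and 0.969 FPKM with Bmi1 shRNA. Bmi1 shRNA replicates 1 and 3 were below all controls and replicate 2 was among them. The log2 fold change of -0.14 did not pass (limma, adjusted p = 0.199; 95% interval -0.36 to 0.07), on 17.8 to 32.7 estimated fragments per library.

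Among tested rows with a known transcript, the direction of change went with its GC content, and the members differ widely in it. CXCL8 has a GC content of 33.4% and IL18 of 42.3%, against 53.1% for NFKBIA, 56.0% for CXCL16 and a median of 50.4% over tested rows. Tested rows were split by GC content into 10 groups of like size. In the group that holds CXCL8 the median log2 fold change was 0.48, in that of IL18 0.18, in that of NFKBIA -0.22 and in that of CXCL16 -0.21. CXCL8 thus lay below the median of its group although its own log2 fold change was above 0.

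**Figure D2:**
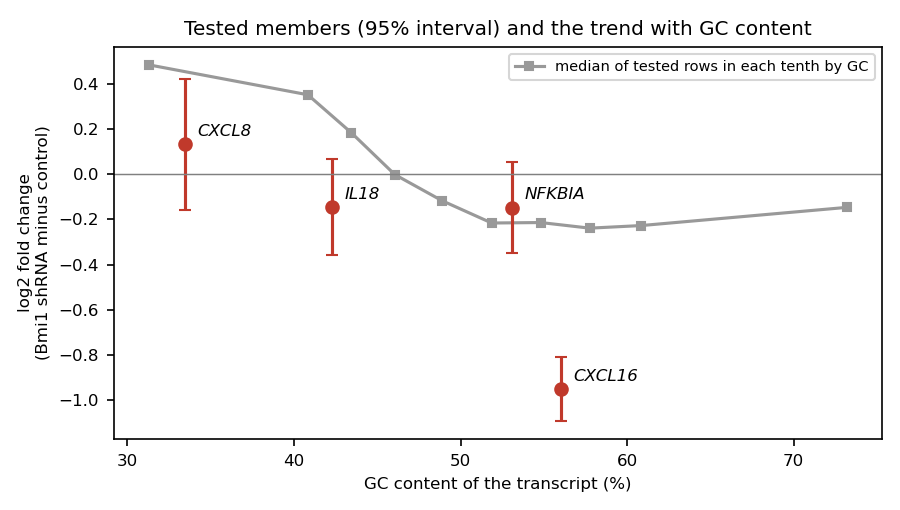
Log2 fold change (vertical axis, log2(FPKM + 1) scale, Bmi1 shRNA minus control) against GC content of the transcript in percent (horizontal axis); grey squares are the medians of tested rows in 10 groups by GC content, red dots are the 4 tested genes with their 95% intervals. CXCL16 (-0.95) lies below the trend, as do CXCL8 (0.13) and IL18 (-0.14), while NFKBIA (-0.15) lies near it.

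When a trend fitted on GC content and transcript length was subtracted from each library, 2 more members were called lower. The log2 fold change of CXCL8 went from 0.13 to -0.70 (limma, adjusted p = 0.00228) and that of IL18 from -0.14 to -0.80 (limma, adjusted p = 0.000795). CXCL16 remained called at -0.77 (limma, adjusted p = 0.000532), and NFKBIA was not called at -0.17 (limma, adjusted p = 0.123). Of the rows with a known transcript, 20.5% were called lower in that fit. TNFAIP3, with no filter, went from -0.17 to -0.02 on the log2(FPKM + 1) scale and was then not called (limma, adjusted p = 0.768). For a gene this low the pseudocount sets the size: with 0.1 added in place of 1, the log2 fold change before removal was -0.56. A true change tied to GC content or length would be subtracted as well, and for CXCL8 and IL18 the fall rests on it, since their deposited FPKM overlapped between the groups.

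**Figure D3:**
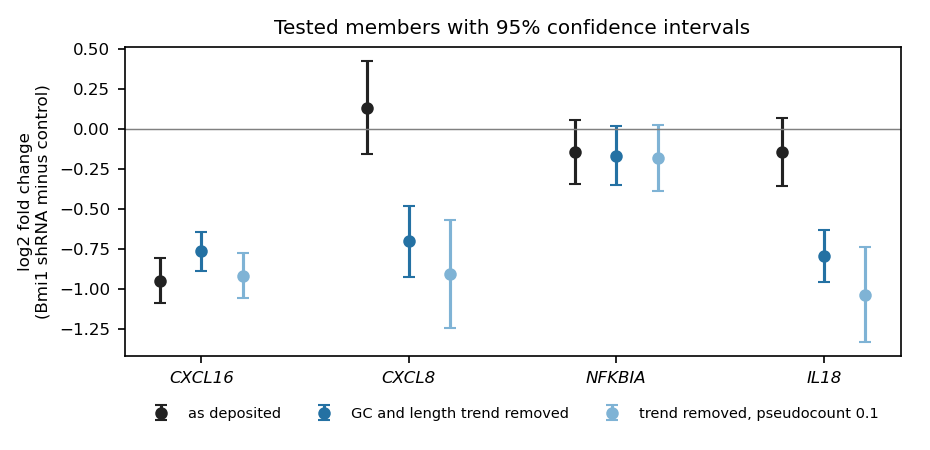
Log2 fold change (vertical axis, Bmi1 shRNA minus control) with 95% intervals for the 4 tested genes, from the deposited FPKM and after the trend with GC content and length was removed, with a pseudocount of 1 or 0.1. CXCL16 lies below 0 in all 3 fits, NFKBIA spans 0 in all 3, and CXCL8 and IL18 lie below 0 once the trend is removed.

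Counts for the other genes of the pathway stand beside 2 shares. The first is over all tested rows, of which 28.5% fell and 28.6% rose. The second is over rows of like GC content, meaning the group that holds the list's median GC content. Single genes of a list can lie in other groups, with other shares. In the groups between 50.4% and 62.5% GC, 45.3% to 47.8% of rows fell and 10.9% to 14.8% rose. Of 4 tested NF-kB subunits 3 fell, none rose and 1 did not pass, with a median log2 fold change of -0.45 and a median GC content of 59.7%. RELA, the p65 subunit, measured 14.1, 11.9 and 12.6 FPKM in control and 6.10, 6.95 and 8.50 FPKM with Bmi1 shRNA, with no overlap. It fell to 55.7% of control (log2 fold change -0.77; limma, adjusted p = 0.00232). NFKB1, which encodes p50, fell from 4.35 ± 0.403 to 2.59 ± 0.260 FPKM (SD, n = 3 each), and NFKB2 from 5.43 ± 0.463 to 4.17 ± 0.255 FPKM. RELB measured 2.26 ± 0.366 and 2.34 ± 0.134 FPKM, and REL did not exceed 0.200 FPKM in any library. After removal of the trend RELA and NFKB1 were called lower and NFKB2 was not (limma, adjusted p = 0.767), and with the replicate number as a block besides, RELA was not called either (limma, adjusted p = 0.0505).

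Upstream of NF-kB, 3 of 16 tested kinases and adaptors rose and 8 fell (median log2 fold change -0.21, median GC content 58.1%). Of all tested rows 28.6% rose and 28.5% fell. In the group that holds the list's median GC content, 47.8% of rows fell and 10.9% rose. TBK1, a kinase related to the IKKs, rose 2.32-fold from 1.11 ± 0.160 to 2.56 ± 0.0908 FPKM (SD, n = 3 each), and CHUK, the IKK-alpha subunit, rose 1.63-fold. TRAF2, an adaptor of TNF receptors, fell from 11.1 ± 0.146 to 7.65 ± 0.347 FPKM, and MAP3K14, the kinase of the noncanonical branch, from 2.77 ± 0.278 to 1.64 ± 0.128 FPKM. Removing the trend left 3 higher and 3 lower, and CHUK and MAP3K14 were no longer called (limma, adjusted p = 0.381 and 0.177). TBK1 (39.3% GC) and CHUK (39.1%) lie in the group of lowest GC content, where 74.7% of rows rose. TRAF2 (61.3%) and MAP3K14 (59.0%) lie where 47.0% and 47.8% of rows fell. Of 9 tested receptors, 5 fell and none rose (median -0.29, median GC content 55.0%). Of all tested rows 28.5% fell and 28.6% rose, and of rows of like GC content 45.3% fell and 14.8% rose. The TRAIL receptors TNFRSF10A and TNFRSF10B fell to 49.9% and 62.5% of control. Both lie in a group by GC content where 35.3% of rows fell. With the trend removed 2 receptors were lower and none higher. LTBR, the lymphotoxin receptor, and IL17RA, the interleukin-17 receptor, also fell in the deposited values, to 68.7% and 64.0% of control. Both calls ended with the trend removed (limma, adjusted p = 0.0635 and 0.824), when low rows were kept in (0.0523 and 0.0781), and on leaving out any of 4 libraries, replicates 2 and 3 of control and 1 and 2 of Bmi1 shRNA (at most 0.0611 and 0.0891). That of IL17RA also ended without Bmi1 shRNA replicate 3 (limma, adjusted p = 0.0560).

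The cytokines that most often start the pathway lay near 0. TNF was listed at 0 in 5 of 6 libraries and reached 0.0878 FPKM in the other, and IL1A and IL1B did not exceed 0.0757 and 0.0577 FPKM. Of 20 cytokines other than chemokines 17 had a row, and 3 of those had enough signal to be tested. IL6, IL36G and CSF3 had no row under these names. IL1RN, the interleukin-1 receptor antagonist, fell from 9.70 ± 1.55 to 4.98 ± 0.632 FPKM (SD, n = 3 each), and LIF, a cytokine of the interleukin-6 family, from 17.2 ± 1.29 to 11.7 ± 1.53 FPKM. IL23A, a subunit of interleukin-23, rose from 2.49 ± 0.644 to 3.95 ± 0.531 FPKM. Leaving out control replicate 1 or 2 or Bmi1 shRNA replicate 1 ended its call (limma, adjusted p up to 0.0688), as did keeping low rows in (0.0622). With the trend removed IL1RN was called, while LIF and IL23A were not (limma, adjusted p = 0.113 and 0.111). TNF, IL1A and IL1B, and the receptors of the members given below, were named after their values were seen.

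Among the other negative regulators of NF-kB the directions were mixed, with 3 higher, 4 lower and 2 not passing of 9 tested (median 0.12). Of all tested rows 28.6% rose and 28.5% fell. In the group that holds the list's median GC content (43.4%), 10.7% of rows fell and 42.5% rose. TAX1BP1, an adaptor through which A20 acts, rose 2.45-fold from 2.60 ± 0.383 to 6.37 ± 0.325 FPKM (SD, n = 3 each), and BIRC2, the ubiquitin ligase cIAP1, rose 2.58-fold from 1.38 ± 0.0820 to 3.57 ± 0.494 FPKM. TNIP2, a partner of A20, fell to 76.5% of control, and ZC3H12A, an RNase that degrades cytokine mRNAs, to 77.9%. Removing the trend left 2 higher and 2 lower, and ended the call of ZC3H12A (limma, adjusted p = 0.319). The genes named here lie in other groups by GC content than the list's median. For TNIP2 (61.8% GC) and ZC3H12A (61.1%) it is a group where 47.0% of rows fell. BIRC2 (38.0%) lies where 74.7% rose and TAX1BP1 (48.0%) where 18.3% rose. None of the 3 tested IkB proteins other than NFKBIA was called; at an unadjusted p under 0.05 there was BCL3 (limma, adjusted p = 0.0567), at 7.54 ± 0.781 and 5.91 ± 0.874 FPKM (SD, n = 3 each). With the trend removed 1 of the 3 was called higher.

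Of 7 tested other targets of NF-kB, 5 fell, none rose and 2 did not pass (median log2 fold change -0.49, median GC content 56.9%), where 47.8% of rows of like GC content fell and 10.9% rose. ICAM1, the adhesion molecule that binds leukocyte integrins, fell from 14.5 ± 0.613 to 10.1 ± 0.939 FPKM (SD, n = 3 each), and LCN2, an antibacterial iron-binding protein, from 26.2 ± 2.94 to 18.4 ± 1.41 FPKM. EFNA1, an ephrin induced by TNF, fell to 52.4% of control and the transcription factor IRF1 to 70.0%. After removal of the trend 4 were lower and none higher, and IRF1 was not called (limma, adjusted p = 0.273).

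**Figure D4:**
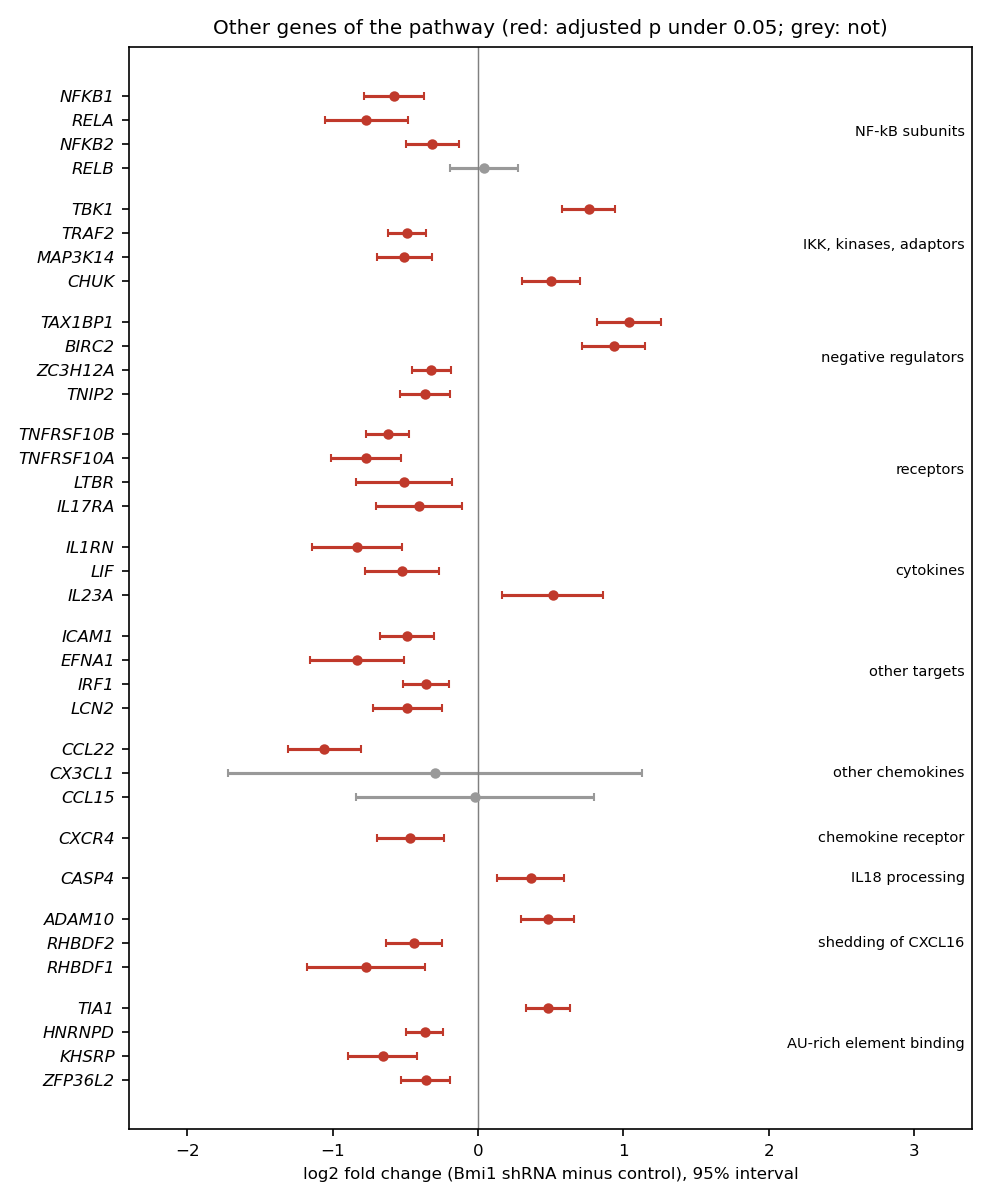
Log2 fold change (horizontal axis, log2(FPKM + 1) scale, Bmi1 shRNA minus control) with 95% intervals for the named genes of the pathway other than the 10 chemokine, feedback and IL18 genes, grouped by role; red marks an adjusted p under 0.05. RELA (-0.77), NFKB1 (-0.58) and CCL22 (-1.06) lie below 0 and TBK1 (0.76), TAX1BP1 (1.04) and BIRC2 (0.93) above it.

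Outside the named members, 3 chemokines were abundant enough to be tested, of 11 with a single row. CCL22, which attracts CCR4-bearing T cells, measured 4.14, 5.28 and 4.87 FPKM in control and 1.498, 1.80 and 2.01 FPKM with Bmi1 shRNA. The groups did not overlap, and CCL22 fell to 37.1% of control (log2 fold change -1.06; limma, adjusted p = 0.000559); with the trend removed the log2 fold change was -0.82 and was called (limma, adjusted p = 0.00162). CX3CL1, which like CXCL16 is made as a membrane protein, varied widely within both groups (3.72, 4.20 and 14.4 FPKM in control and 1.88, 7.09 and 7.75 FPKM with Bmi1 shRNA) and did not pass. CCL15 was the most abundant chemokine, at 27.7, 23.3 and 24.6 FPKM in control and 34.1, 13.3 and 33.1 FPKM with Bmi1 shRNA. Bmi1 shRNA replicate 2 stood apart, and in that library the overlapping readthrough row CCL15-CCL14 measured 29.7 FPKM against 4.52 to 6.73 FPKM in the other libraries. CCL15 did not pass with all libraries (limma, adjusted p = 0.963), and without Bmi1 shRNA replicate 2 it was called higher (log2 fold change 0.40; limma, adjusted p = 0.0146). Fragments of these overlapping rows may be assigned to either, so both are uncertain.

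Few receptors for the members were found in these cells. CXCR1 and CXCR2, the receptors of CXCL1 and CXCL8, did not exceed 0.138 and 0.0389 FPKM, CXCR6, the receptor of CXCL16, 0.0532 FPKM, and CCR6, the receptor of CCL20, 0.754 FPKM. Of 18 chemokine receptors with a row, 2 were tested. CXCR4, the receptor of CXCL12, fell to 70.7% of control, from 15.2 ± 0.976 to 10.7 ± 1.28 FPKM (SD, n = 3 each), with a limma adjusted p of 0.00675. CCRL2, which was at 5.47 ± 0.231 and 4.55 ± 0.507 FPKM (SD, n = 3 each), did not pass (limma, adjusted p = 0.0519). Both were called lower with the trend removed.

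Genes that process the members after transcription were also measured. CXCL16 is cut from the cell surface by ADAM10, which rose 1.68-fold from 1.42 ± 0.0658 to 2.38 ± 0.262 FPKM (SD, n = 3 each). Its log2 fold change of 0.48 equalled the median of its group by GC content (0.48), where 74.7% of rows rose. ADAM10 has a GC content of 38.3%. It was still called higher with the trend removed, but not with the replicate block besides. RHBDF1 and RHBDF2, which carry the related sheddase ADAM17 to the surface, fell to 57.2% and 66.3% of control, calls that ended once the trend was taken out (limma, adjusted p = 0.0599 and 0.195). For IL18, 1 of 4 tested genes of its maturation rose and none fell (median 0.12, median GC content 53.9%), where 14.8% of rows of like GC content rose. CASP4, an inflammatory caspase, rose 1.44-fold, a call lost on leaving out control replicate 1 (limma, adjusted p = 0.0522) and with the trend removed (0.0506). In that fit 1 of the 4, another gene than CASP4, was called higher and none lower. CASP4 itself (46.2% GC) lies in a group by GC content where 26.0% of rows rose. CASP1, the main activating caspase, did not exceed 0.0497 FPKM.

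Genes of proteins that bind AU-rich elements, which shorten the life of chemokine mRNAs, were all above the filter. The list also holds CNOT1 and CNOT7, subunits of a deadenylase complex that do not bind these elements themselves. Of 11, 2 rose, 5 fell and 4 did not pass (median log2 fold change -0.23, median GC content 45.2%), where 23.4% of rows of like GC content fell and 26.0% rose. KHSRP, which promotes decay of such mRNAs, fell from 53.7 ± 2.88 to 33.9 ± 4.50 FPKM (SD, n = 3 each), HNRNPD (AUF1) to 76.6% and ZFP36L2 to 77.2% of control, while TIA1 rose from 1.999 ± 0.124 to 3.19 ± 0.139 FPKM. Without the trend 3 were lower and none higher, and TIA1 and ZFP36L2 were not called (limma, adjusted p = 0.638 and 0.408). TIA1 (36.6% GC) lies in a group by GC content where 74.7% of rows rose. KHSRP (59.2%) and ZFP36L2 (54.4%) lie where 47.8% and 45.3% fell, and HNRNPD (42.0%) where 3.72% fell.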

How the data were processed

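Poly(A) RNA was sequenced, per the labels' protocols, which also name adipose material that these cells are not. The authors deposited 1 table of FPKM values for the 6 libraries; its column names Sc and Sh were taken as control and Bmi1 shRNA with the replicate numbers of the sample titles. The submitters' processing notes list HISAT2 2.0, StringTie 1.3.0 and Bowtie 0.12.2 with no roles; the build named there, mm8, is a mouse build, so the build used is not settled. Read counts and strand are not given in the sources used here.

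All 27238 rows entered; those with a mean of at least 1 FPKM were tested as log2(FPKM + 1) with limma 3.58.1 in R 4.3.3 (group as the sole term, trended eBayes, Benjamini-Hochberg over all tested rows). P-values measure the spread between these 3 libraries per group. Lower members got exact permutation tests. GC content and length came from each gene's longest GENCODE 29 transcript, protein-coding where it has one (92.8% of tested rows); each library's trend was fitted with natural splines of 5 degrees of freedom each and subtracted. Depth steps came from FPKM times length in kilobases, in rows with 1 transcript: 5.86 to 6.71% of low rows lay within 1% of the step. Fragment estimates assume that transcript's length and cover counting only.

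The members and lists were chosen with earlier results of these data known. Named genes: all members, BMI1, and in each list up to 4 genes with the smallest p and the most abundant; of these, the text gives the called ones and every tested NF-kB subunit and chemokine, BCL3 and CCRL2, a narrowing made after values were seen. A gene of the IL18 list and a leukocyte marker are not reported here and were left out of those lists' counts. Other settings are in the closing section. The fit was tested on simulated data.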

Additional observations from a re-analysis of the deposited data

How the results depend on the processing

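CXCL16 was lower and called in all 16 alternatives that tested it, with log2 fold changes from -1.16 to -0.77 and limma adjusted p up to 0.00932; with a mean of at least 5 FPKM it was not tested, and the count of members called lower was then 0. That count was 1 with all rows over 1 FPKM, 2 with no filter, and 3 when the trend with GC content and length was removed, alone, with the replicate block, or with a pseudocount of 0.1 (an alternative added after seeing the data). No member was called higher in any setting. CXCL8 turned to -0.70 with the trend removed, also with the replicate block, and to -0.91 with a pseudocount of 0.1; IL18 was then -0.80 and -1.04. Leaving out each library moved CXCL8 between 0.07 and 0.25, IL18 between -0.22 and -0.10 and NFKBIA between -0.21 and -0.10, none called.

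Over all rows, 3152 genes were higher and 3143 lower. A mean of at least 5 FPKM left 1631 and 1847 (fewer rows tested). With the trend removed there were 1957 and 2100, with the trend removed and the replicate block 1573 and 1568, and with the trend removed and a pseudocount of 0.1 there were 1958 and 2061. RELB turned to -0.0251 with libraries scaled to a total of 1000000 (which moved the median of all tested rows from -0.02 to -0.10) and to -0.0063 with quantile normalization, and ran from -0.0557 to 0.10 with a library left out. IL17RA turned to 0.0333 with the trend removed, with or without the replicate block. CX3CL1 turned to 0.10 with the trend removed, with or without the block, and to 0.11 with a pseudocount of 0.1, and ran from -0.60 to 0.25 with a library left out. CCL15 turned to 0.0333 with library weights and ran from -0.24 to 0.40. The trend removed together with the replicate block ended 4 calls that removal of the trend alone kept: RELA (limma, adjusted p = 0.0505), ICAM1 (0.0601), ADAM10 (0.065) and TNIP2 (0.0851). The cause was not tested for these genes.

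Same-numbered libraries did not deviate together (r of 0.00, -0.08 and -0.02 across genes), so no shift shared by replicate number was seen. Control replicate 1, for example, correlated best with Bmi1 shRNA replicate 2 (0.07). With 3 libraries per group this cannot tell whether same-numbered samples were prepared together. The replicate block alone gave 2870 genes higher and 2788 lower, and 1 member lower; without a filter it ended the call of TNFAIP3 (limma, adjusted p = 0.106). Depth limits CXCL1, CXCL2, CXCL3 and CCL20, which rest on at most an estimated 15.8 fragments per library.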
